A study of Mus musculus with 13 samples.

Results

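FOXO target genes were followed in interscapular brown adipose tissue (iBAT) of mice, where 10 genes that FOXO factors are known to induce were chosen by name, namely Pdk4, Txnip, Klf15, Sesn1, Sesn3, Ccng2, Pik3ip1, Fbxo32, Trim63 and Bcl6, out of the 42416 gene identifiers counted. All 10 passed the filter on low counts, as did 13360 genes in all. Bulk RNA sequencing covered 13 libraries, 1 library per mouse, of which 8 were labelled iFAXLKO and 5 WT. The iFAXLKO mice carried Axl between loxP sites together with Cre, and the WT mice carried the same floxed Axl without Cre. Mice of both groups, kept at room temperature, ate a high-fat diet (HFD). Tamoxifen was given at intervals of 3 weeks to induce the knockout, and the methods do not say whether the WT mice received it. Per the methods of the study, the Cre was Adipoq-CreERT2, a bacterial artificial chromosome transgene that is active in adipocytes after tamoxifen, so that other cells of the depot kept Axl, and tissue-specific knockouts were studied in adult females. The labels give neither age nor sex.

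FOXO factors are forkhead transcription factors that sit in the nucleus when insulin signalling is low and switch on genes of fuel sparing, growth restraint and protein breakdown. Insulin and growth factor receptors activate PI3K and AKT, AKT phosphorylates FOXO, and phosphorylated FOXO leaves the nucleus, so that its targets are less transcribed. In adipocytes FOXO1 is known for restraining differentiation, and AXL is a receptor tyrosine kinase that can signal through PI3K and AKT. The study followed FoxO1 downstream of AXL, and the comparison here asks whether transcripts of FOXO targets differed between the groups.

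The libraries labelled iFAXLKO did not have less Axl, the gene targeted by Cre, in the comparison without covariates. Its level was 33.1 ± 6.16 CPM (SD, n = 8) there and 27.8 ± 3.83 CPM in WT (SD, n = 5), with a log2 fold change of 0.25 (SE 0.13, edgeR adjusted p = 0.699), so every direction below is one between libraries as labelled. With a fibroblast score, the mean log2 CPM of 10 fibroblast markers, as a covariate, the log2 fold change of Axl turned to -0.24, with an unadjusted edgeR p of 0.0385 and an adjusted p of 1.000. This score nearly split the groups, so fits with it cannot well separate the score from the group. CPM are counts per M counts of a library, scaled with TMM factors. Totals ranged from 22.4 to 32.6 M counts per library, of which mitochondrially encoded genes took 18.3% to 21.3%. Where a gene had 0 counts, up to 3 are allowed for, equal to 0.092 to 0.134 CPM depending on the library, which covers counting error only. All 12 brown adipocyte markers were detected in every library, with a summed level of 16690 to 21660 CPM in iFAXLKO and 18150 to 27170 CPM in WT. Of these 12, 1 had an edgeR adjusted p under 0.05, with a higher value in iFAXLKO, beside 0.127% of all genes tested. Their log2 fold changes, 2 positive and 10 negative, ran from -0.69 to 0.66 with a median of -0.07.

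None of the FOXO targets was shown to differ between the groups. Of the 10 genes, 0 were called by edgeR's quasi-likelihood test at a Benjamini-Hochberg adjusted p under 0.05, where 17 of 13360 genes (0.127%) were called, and 0 were called by DESeq2 or limma-voom. At an unadjusted edgeR p under 0.05 there was 1 member, Sesn1, beside 7.38% of all genes tested, and the CPM ranges of the groups overlapped for all 10 members, beside 0.434% of all genes without overlap. The log2 fold change was positive for 5 members and negative for 5, with a median of -0.02 beside -0.01 over all genes. In a bulk sample, fewer cells of a type and less RNA per cell cannot be told apart.

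Promoter sequences were read to show which members carry a FOXO motif next to a start site. The RefSeq promoter table (GRCm38.p6) held 11 windows for 9 of the members, each with 250 bases before and 50 bases after a start site, and none for Fbxo32. The FOXO core GTAAACA, searched on both strands, was found in windows of Txnip, Trim63 and Sesn1, and in 3.65% of all 32851 windows. The core of the insulin response element, CAAAACA, was found in Ccng2 and in 6.28% of all windows. Both motifs end in AAACA but begin differently, so no stretch matches both. The E-box palindrome CACGTG was found in Klf15 and Bcl6 and in 7.15% of all windows, and not in the Txnip window. Only this palindrome was searched, so looser E-box forms were not covered. The windows with either FOXO motif are printed 5′ to 3′ along the gene, with the motif in capitals. Those of Ccng2 and Sesn1 lie inside the gene models, which begin at 93267257 and 41809935. Their start sites are thus not the most upstream ones of these genes.

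Txnip, plus strand, chr3:96557707-96558006, motif 121 bases before the start site:
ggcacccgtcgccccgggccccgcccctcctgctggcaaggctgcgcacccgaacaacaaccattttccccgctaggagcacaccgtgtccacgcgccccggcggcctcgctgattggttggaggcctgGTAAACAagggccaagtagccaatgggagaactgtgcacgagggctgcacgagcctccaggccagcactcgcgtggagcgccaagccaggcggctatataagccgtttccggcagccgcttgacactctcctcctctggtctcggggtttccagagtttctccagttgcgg
Trim63, plus strand, chr4:134314870-134315169, motif on the opposite strand 194 bases before the start site:
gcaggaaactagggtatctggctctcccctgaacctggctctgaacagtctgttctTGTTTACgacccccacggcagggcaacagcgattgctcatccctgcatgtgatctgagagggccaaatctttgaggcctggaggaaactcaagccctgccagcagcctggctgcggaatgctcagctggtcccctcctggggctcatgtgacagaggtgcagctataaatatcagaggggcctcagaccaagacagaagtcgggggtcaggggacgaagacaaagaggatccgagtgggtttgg
Ccng2, plus strand, chr5:93267323-93267622, motif 16 bases before the start site:
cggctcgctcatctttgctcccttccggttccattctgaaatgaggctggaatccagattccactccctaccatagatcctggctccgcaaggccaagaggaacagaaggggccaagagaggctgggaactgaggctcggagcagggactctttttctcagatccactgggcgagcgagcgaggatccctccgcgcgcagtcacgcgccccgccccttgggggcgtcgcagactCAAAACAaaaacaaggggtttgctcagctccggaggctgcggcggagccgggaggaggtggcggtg
Sesn1, plus strand, chr10:41810324-41810623, motif on the opposite strand 23 bases after the start site, inside the transcribed sequence:
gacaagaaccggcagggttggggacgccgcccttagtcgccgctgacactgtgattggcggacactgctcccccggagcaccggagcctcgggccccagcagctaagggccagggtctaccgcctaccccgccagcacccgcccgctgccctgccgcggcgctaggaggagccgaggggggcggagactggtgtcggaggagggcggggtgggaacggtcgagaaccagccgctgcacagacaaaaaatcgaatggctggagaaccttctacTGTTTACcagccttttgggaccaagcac

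These matches are a description of the letters. Of the genes printed, Sesn1 was the member with the smallest p and Txnip and Trim63 were among those with the largest. The log2 fold change was 0.26 (SE 0.10) for Sesn1, -0.07 (SE 0.16) for Txnip and 0.44 (SE 1.09) for Trim63, and none was called. Whether the motif goes with the change was not tested.

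Levels differed widely among the members. Per kb of exon, Pdk4 stood highest in WT with 893 ± 205 CPM per kb (SD, n = 5), followed by Txnip with 476 ± 75.1, and the WT ranges of these genes did not overlap with each other or with the next gene. Ccng2 at 20.4 ± 3.71, Klf15 at 16.1 ± 2.79 and Bcl6 at 12.3 ± 1.77 CPM per kb came next, and each overlapped with its neighbour. Sesn1 at 3.59 ± 0.559, Pik3ip1 at 3.12 ± 0.535 and Fbxo32 at 2.88 ± 0.794 CPM per kb overlapped with one another in this order, but lay below Bcl6 and above Sesn3 without overlap. Sesn3 at 1.38 ± 0.399 and Trim63 at 1.10 ± 0.917 CPM per kb were lowest and overlapped with each other. By CPM, Pdk4 and Txnip ranked at the 99.8th and 99.5th percentile of the genes tested, and Trim63 at the 18.8th.

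**Figure D1:**
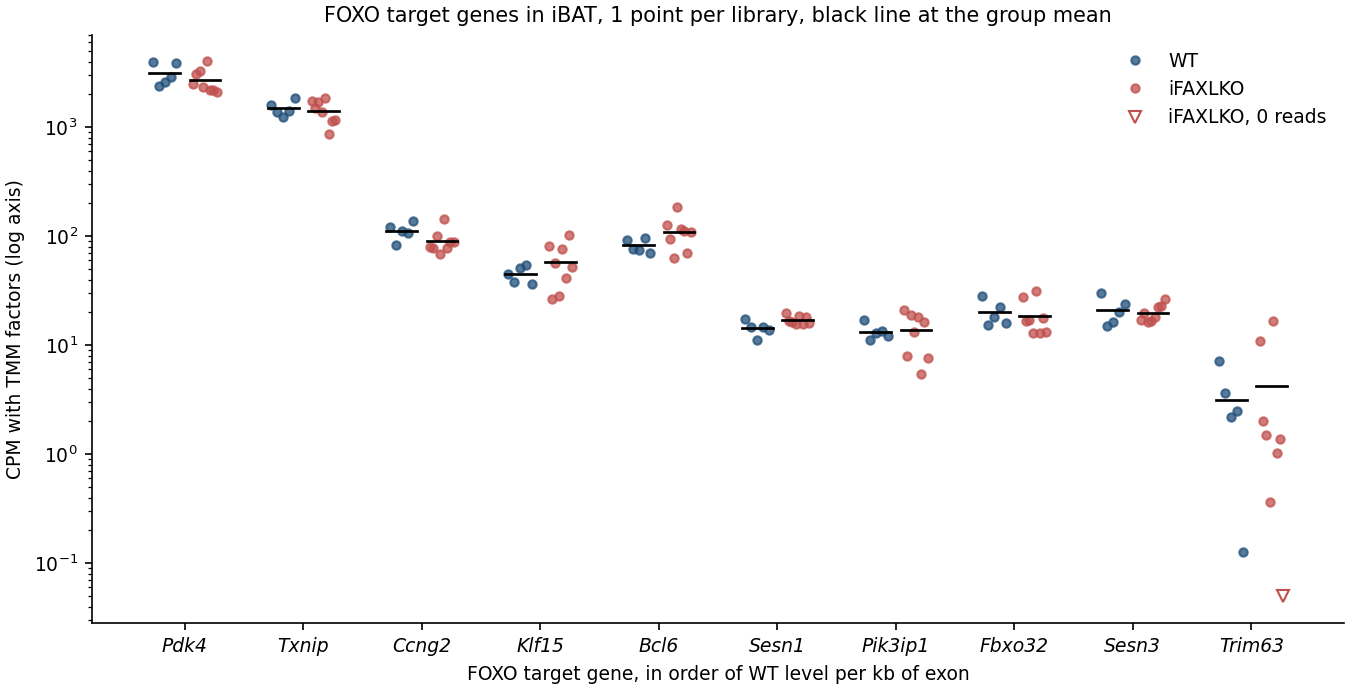
CPM with TMM factors (log axis) of the 10 FOXO target genes, 1 point per library, WT (5, blue) beside iFAXLKO (8, red), with a black line at the group mean and an open triangle at the base of the axis for the library with 0 reads of Trim63. The points of the groups overlap for every gene, Pdk4 lies between 2100 and 4004 CPM and Trim63 between 0 and 16.8 CPM.

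Among the genes of fuel selection, none passed the test. Pdk4 (ENSMUSG00000019577, chromosome 6, 5483351 to 5496309, GRCm38) encodes a kinase that switches off pyruvate dehydrogenase and so spares glucose. Its WT libraries held 3967, 2407, 2593, 2868 and 3837 CPM in replicate order, and the iFAXLKO libraries ran from 2100 over a median of 2411 to 4004 CPM. Here 4 iFAXLKO libraries lay below all WT libraries and 1, replicate 5, above them, and the groups overlapped. The mean was 2708 ± 677 CPM against 3134 ± 721 in WT, 86.4% of WT, with a log2 fold change of -0.21 (SE 0.17, interval -0.58 to 0.16, edgeR adjusted p = 0.855).

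Txnip (ENSMUSG00000038393, chromosome 3, 96557957 to 96561883) encodes an arrestin-like protein that binds thioredoxin and holds back glucose uptake. The WT libraries held 1581, 1372, 1240, 1399 and 1847 CPM, and the iFAXLKO libraries ran from 864 over a median of 1433 to 1837 CPM. No iFAXLKO library exceeded the highest WT library, and 3 of 8 lay below the lowest. The means, 1413 ± 341 and 1488 ± 235 CPM, differed by a log2 fold change of -0.07 (SE 0.16, interval -0.42 to 0.28, edgeR adjusted p = 0.967). The antisense model Gm15441 overlaps Txnip, and it held 8 to 34 reads per library where Txnip held 22619 to 49145.

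Klf15 (ENSMUSG00000030087, chromosome 6, 90462576 to 90475238) encodes a zinc finger factor of amino acid and lipid use. In WT it stood at 44.8, 38.0, 50.9, 54.2 and 36.4 CPM, and the iFAXLKO libraries ran from 26.7 over a median of 54.6 to 103 CPM. The iFAXLKO libraries spread on both sides of WT, with 4 above the highest and 2 below the lowest. The mean was 58.2 ± 26.9 against 44.9 ± 7.79 CPM in WT, 130% of WT, with a log2 fold change of 0.37 (SE 0.30, interval -0.29 to 1.03, edgeR adjusted p = 0.855).

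Among the genes that restrain growth signalling and the cell cycle, Sesn1 had the smallest p of the members. Sesn1 (ENSMUSG00000038332, chromosome 10, 41809935 to 41908424) encodes a sestrin, a stress-induced inhibitor of mTORC1. Its WT libraries held 17.3, 14.7, 11.1, 14.6 and 13.7 CPM, and the iFAXLKO libraries ran from 15.6 over a median of 16.4 to 19.6 CPM. All 8 iFAXLKO libraries lay above the WT mean and 3 above the highest WT library, WT replicate 1, which lay inside the iFAXLKO range. The mean was 17.1 ± 1.46 against 14.3 ± 2.23 CPM in WT, 120% of WT, with a log2 fold change of 0.26 (SE 0.10, interval 0.05 to 0.47), an unadjusted edgeR p of 0.0184 and an adjusted p of 0.550. With the fibroblast score as a covariate, the log2 fold change was 0.19 (edgeR adjusted p = 1.000).

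Its relative Sesn3 (ENSMUSG00000032009, chromosome 9, 14275067 to 14333101) held 29.9, 14.9, 16.4, 20.2 and 24.0 CPM in WT and ran from 16.3 over a median of 18.9 to 26.6 CPM in iFAXLKO. All 8 iFAXLKO libraries lay inside the WT range. The log2 fold change was -0.08 (SE 0.16, interval -0.43 to 0.27, edgeR adjusted p = 0.961), and it was 0.08 without WT replicate 1, the library with the highest value.

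Ccng2 (ENSMUSG00000029385, chromosome 5, 93267257 to 93276231) encodes a cyclin that is tied to cell cycle exit. In WT it stood at 121, 82.3, 111, 106 and 137 CPM, and the iFAXLKO libraries ran from 68.5 over a median of 84.3 to 144 CPM. Of the 8 iFAXLKO libraries, 7 lay below the WT mean and 4 below the lowest WT library, while replicate 5 was the highest of all. The mean was 90.7 ± 23.5 against 112 ± 20.3 CPM in WT, 81.3% of WT, with a log2 fold change of -0.30 (SE 0.16, interval -0.64 to 0.04, edgeR adjusted p = 0.717). Without iFAXLKO replicate 5, the log2 fold change was -0.42 (edgeR adjusted p = 0.255), and with the fibroblast score as a covariate it was -0.10 (edgeR adjusted p = 1.000).

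Pik3ip1 (ENSMUSG00000034614, chromosome 11, 3330401 to 3342971) encodes a membrane protein that inhibits PI3K and thus acts upstream of FOXO as well. Its WT libraries held 17.2, 11.2, 12.9, 13.4 and 12.1 CPM, and the iFAXLKO libraries ran from 5.42 over a median of 14.9 to 21.3 CPM. The iFAXLKO libraries again lay on both sides, with 3 above and 3 below the WT range. The log2 fold change was 0.03 (SE 0.30, interval -0.61 to 0.67, edgeR adjusted p = 0.991), and its sign turned in 5 of the 13 fits that left out 1 library, where it lay between -0.09 and 0.15. The model Gm12592 overlaps Pik3ip1 on the opposite strand with 3 to 28 reads per library.

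Fbxo32 and Trim63 encode the ubiquitin ligases atrogin-1 and MuRF1, which mark muscle proteins for breakdown in wasting muscle. Fbxo32 (ENSMUSG00000022358, chromosome 15, 58175879 to 58214932) held 28.5, 15.2, 18.2, 22.7 and 15.9 CPM in WT and ran from 12.97 over a median of 16.8 to 31.4 CPM in iFAXLKO. Of the 8 iFAXLKO libraries, 2 lay above the WT mean and 3 below the WT range. The means, 18.7 ± 6.99 and 20.1 ± 5.54 CPM, differed by a log2 fold change of -0.11 (SE 0.24, interval -0.62 to 0.40, edgeR adjusted p = 0.967).

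Trim63 (ENSMUSG00000028834, chromosome 4, 134315120 to 134329629) held 7.20, 3.65, 2.18, 2.48 and 0.127 CPM in WT, the last from 3 reads, and ran from 0 over a median of 1.45 to 16.8 CPM in iFAXLKO, from 0 to 450 reads. The WT libraries all lay inside the iFAXLKO range, and 2 iFAXLKO libraries lay above the highest WT library. The iFAXLKO mean, 4.27 ± 6.19 CPM, was above the WT mean, 3.13 ± 2.61 CPM, while the iFAXLKO median was below the WT median of 2.48 CPM. The log2 fold change was 0.44 (SE 1.09, interval -1.94 to 2.82, edgeR adjusted p = 0.970), and without iFAXLKO replicate 5, the highest library, it was -0.34.

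Skeletal muscle transcripts were present in iBAT libraries at very unequal levels, and Trim63 followed them. Acta1, skeletal muscle actin, ran from 0.438 CPM in iFAXLKO replicate 8 and 4.81 CPM in WT replicate 5 to 1280 CPM in iFAXLKO replicate 5, a 266-fold range without the lowest library. The summed level of 22 muscle markers ran from 120 over a median of 1102 to 6741 CPM in iFAXLKO and from 150 over a median of 1876 to 4699 CPM in WT, and 1 of the 22 markers was at 0 in an iFAXLKO library and none in WT. Of these markers 0 were called and 0 had an edgeR p under 0.05, and their median log2 fold change was -0.26. The share of muscle RNA thus varied between mice of both groups.

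Trim63 had 0 reads in the library with the lowest Acta1, 3 reads in the next lowest and most reads in the library with the highest Acta1. A least squares line through the 13 libraries rose by 11.5 CPM of Trim63 per 1000 CPM of Acta1 from -0.585 CPM without Acta1, and it held 87.4% of the variance of Trim63. Fbxo32 kept a level where muscle transcripts were nearly absent. It held 13.2 CPM in the library with 0.438 CPM of Acta1 and 15.9 CPM in that with 4.81 CPM, and its line started at 14.2 CPM without Acta1, rose by 13.1 CPM per 1000 CPM of Acta1 and held 72.0% of its variance. The libraries with the highest Acta1, iFAXLKO replicate 1, WT replicate 1 and iFAXLKO replicate 5, held 27.5, 28.5 and 31.4 CPM of Fbxo32. All other libraries lay between 12.97 and 22.7 CPM. With group means removed, log2 CPM correlated with Acta1 at r = 0.95 (rho = 0.90) for Trim63 and r = 0.64 (rho = 0.64) for Fbxo32 over 13 libraries. Without the 2 libraries with the lowest Acta1, iFAXLKO replicate 8 and WT replicate 5, r was 0.89 and 0.69, with the libraries highest in Acta1 kept in. These correlations are descriptions over libraries that share their scaling. Sesn1 came next, at r = 0.42 (rho = 0.66) over 13 libraries and r = 0.55 without the same 2 libraries.

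**Figure D2:**
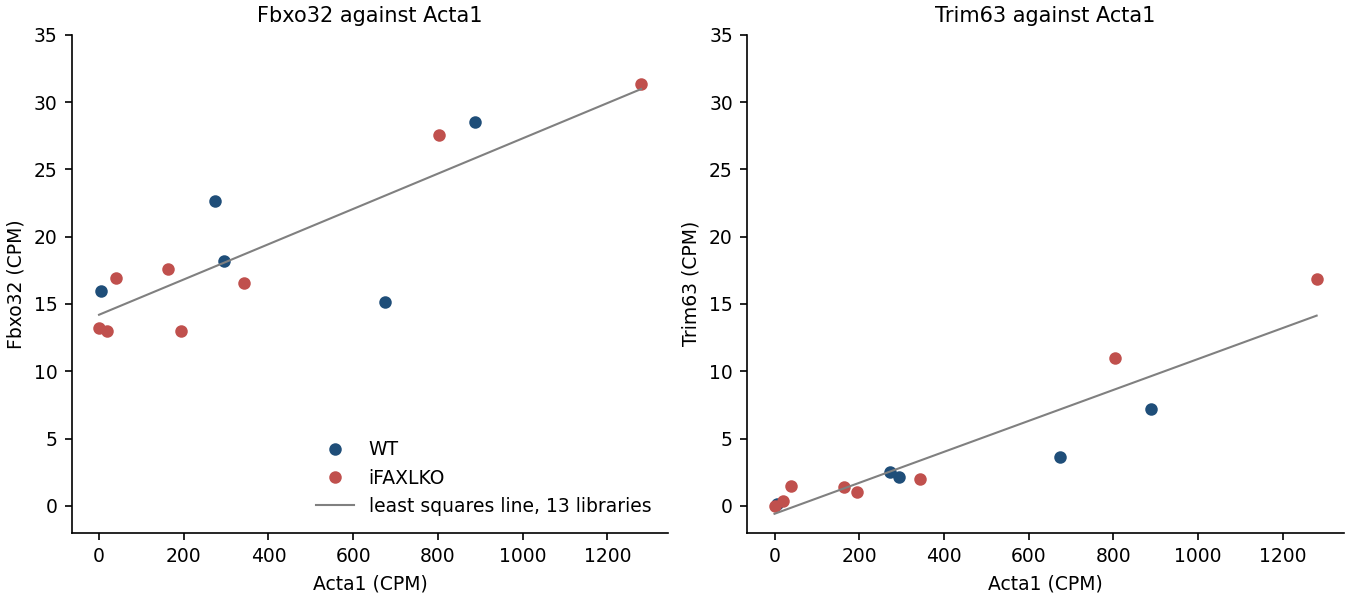
CPM of Fbxo32 (left) and Trim63 (right) against CPM of Acta1, 1 point per library (WT blue, iFAXLKO red), with the least squares line through 13 libraries in grey. The Trim63 line starts near 0 and the Fbxo32 line at 14.2 CPM.

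With the skeletal muscle score, the mean log2 CPM of the 22 markers, as a covariate, the log2 fold change was -0.06 for Fbxo32 (edgeR adjusted p = 0.981) and 0.53 for Trim63 (edgeR adjusted p = 0.807). Without iFAXLKO replicate 5 and WT replicate 1, the libraries with the highest score, it was -0.10 (edgeR adjusted p = 0.929) and 0.23 (edgeR adjusted p = 0.972). The same 2 libraries, with iFAXLKO replicate 1, held the 3 highest levels of both genes.

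Bcl6 (ENSMUSG00000022508, chromosome 16, 23965052 to 23988852) encodes a transcriptional repressor known from germinal centre B cells and from lipid metabolism. The WT libraries held 92.9, 77.0, 74.2, 97.0 and 70.4 CPM, and the iFAXLKO libraries ran from 63.6 over a median of 111 to 185 CPM. Of the 8 iFAXLKO libraries, 5 lay above all WT libraries and 2 below them. The mean was 110 ± 37.7 against 82.3 ± 11.9 CPM in WT, 133% of WT, with a log2 fold change of 0.41 (SE 0.21, interval -0.04 to 0.86, edgeR adjusted p = 0.707). Without iFAXLKO replicate 4, the highest library, it was 0.28 (edgeR adjusted p = 1.000). Bcl6 lies 0.81 Mb from Adipoq, the gene whose surroundings make up the Cre transgene, and its level in relation to the transgene was not tested. The 10 lymphocyte markers were all under the filter, and their summed level was highest in WT replicate 1, at 31.2 CPM, and in iFAXLKO replicate 3, at 10.2 CPM, which was the iFAXLKO library with the lowest Bcl6.

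**Figure D3:**
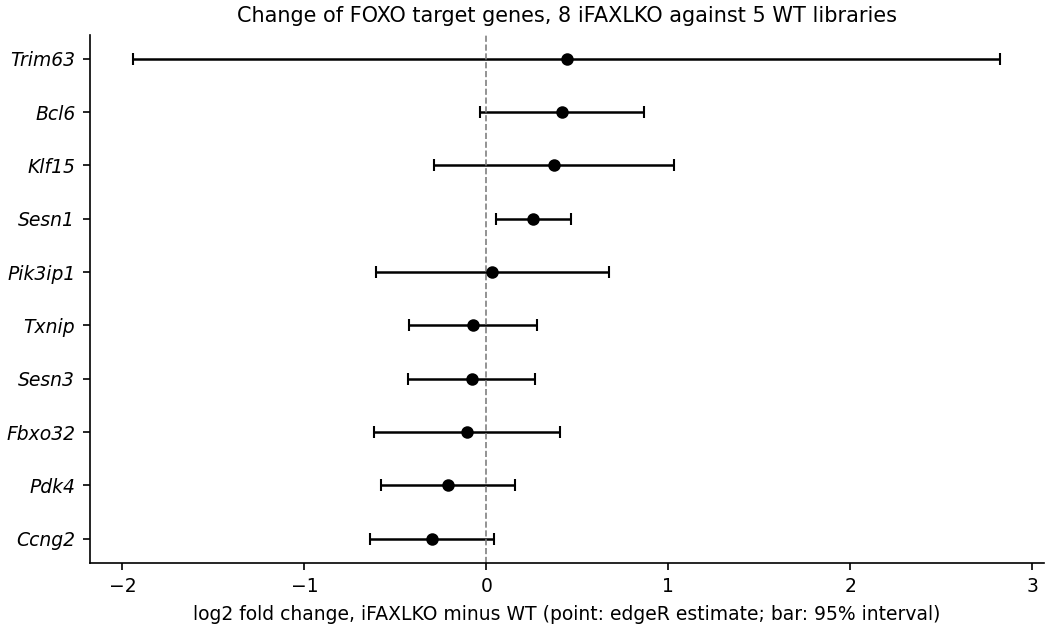
Log2 fold change of each FOXO target gene, 8 iFAXLKO minus 5 WT libraries, as the edgeR estimate (point) with its 95% interval (bar) and a dashed line at 0. The interval of Sesn1, 0.05 to 0.47, leaves out 0, those of the other 9 members include it, and that of Trim63 runs from -1.94 to 2.82.

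Fibroblast and macrophage markers had higher values in iFAXLKO at an unadjusted p. Over all genes, 7.38% had an unadjusted edgeR p under 0.05 in either direction. Of 10 fibroblast markers, 10 had an unadjusted edgeR p under 0.05 and a positive log2 fold change, with 0 called and a median of 0.69, and their summed level ran from 545 to 1197 CPM in iFAXLKO and from 391 to 699 CPM in WT, with none at 0. Of 9 macrophage markers, 8 did so, with 0 called and a median of 0.40, at 152 to 284 CPM in iFAXLKO and 122 to 177 CPM in WT, also with none at 0. Within groups, the members' correlations with the fibroblast score lay between r = -0.28 for Ccng2 and r = 0.26 for Trim63 over 13 libraries. The fibroblast score ran from 4.91 to 5.60 in iFAXLKO and from 4.24 to 4.93 in WT. It thus nearly split the groups, and a fit with it as a covariate cannot well separate these cells from the group. The part of these cells in the members' values was not tested.

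Mice differed more than groups did in several members. The SD of log2 CPM within groups was 2.31 for Trim63, 0.60 for Pik3ip1, 0.58 for Klf15, 0.45 for Fbxo32 and 0.41 for Bcl6, beside a median of 0.21 over the genes tested, and these values ranked at the 99.5th, 95.7th, 95.4th, 90.7th and 88.0th percentile. Sesn1 was the only member below that median, with an SD of 0.17 at the 33.2nd percentile. The highest library exceeded the lowest 3.92-fold for Pik3ip1, 3.86-fold for Klf15 and 1.76-fold for Sesn1.

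Many pairs of members were also correlated from mouse to mouse. With group means removed, 35 of 45 pairs of members correlated positively over the 13 libraries, with a median r of 0.36, and 14 pairs exceeded 0.5. Pairs of all genes were not read in this way, so these values are not shown to be particular to the members. Pdk4 correlated with Txnip at r = 0.77 and with Ccng2 at r = 0.76, Pik3ip1 with Fbxo32 at r = 0.70 and with Txnip at r = 0.69, and Fbxo32 with Trim63 at r = 0.80. Sesn3 and Bcl6 stood apart, with Sesn3 against Trim63 and Klf15 against Bcl6 at r = -0.35. In iFAXLKO replicate 5, 9 of the 10 members lay above the mean of their group by more than 0.1 on the log2 scale. The share of all genes that did so in this library was not worked out, so the count describes the members alone.

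**Figure D4:**
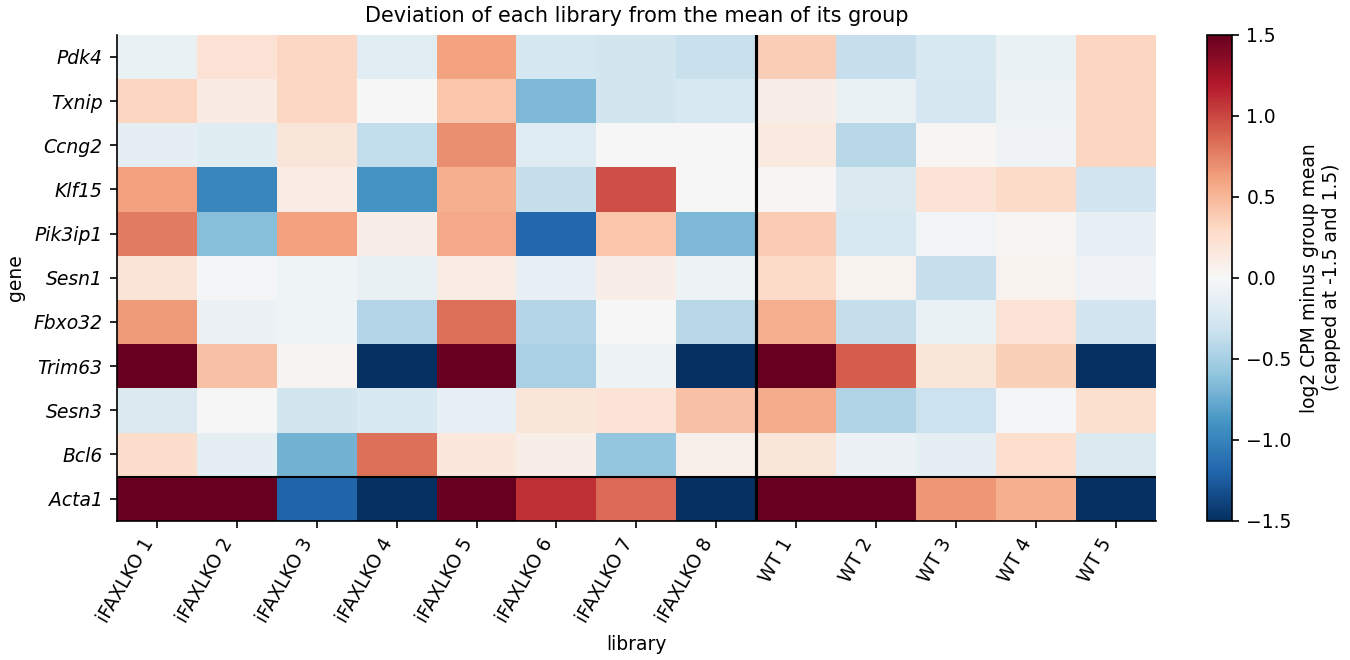
Deviation of log2 CPM from the mean of its group (colour, capped at -1.5 and 1.5) for the 10 FOXO target genes and Acta1 (rows) in 8 iFAXLKO and 5 WT libraries (columns, separated by a black line). Red cells for most members stand in iFAXLKO replicate 5, and the row of Trim63 resembles that of Acta1.

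The genes whose pattern was most like that of each member were searched among 10323 genes with a mean of at least 5 CPM, by Pearson r of log2 CPM with group means removed over 13 libraries. They were Mybpc2, a myosin-binding protein of fast muscle, for Trim63 (r = 0.96), Dio2, the deiodinase that activates thyroid hormone, for Klf15 (r = 0.97), Btc, an EGF family ligand, for Txnip (r = 0.91), and Ppp1r12b, a subunit of myosin phosphatase, for Fbxo32 (r = 0.94). For Pdk4 it was Mroh1 (r = 0.94), for Sesn1 Cnot2 (r = 0.84), for Sesn3 Copb1 (r = 0.97), for Ccng2 Stam (r = 0.93), for Pik3ip1 Cyp2d22 (r = 0.92) and for Bcl6 Zfpm1 (r = 0.94). These values come from a search over many genes and few libraries.

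The FOXO factors themselves and the pathway above them gave no call. Foxo1 was at 67.4 ± 25.0 CPM (SD, n = 8) in iFAXLKO and 50.9 ± 7.58 CPM (SD, n = 5) in WT, above the WT mean in 7 of 8 libraries, with a log2 fold change of 0.41 (SE 0.22, edgeR adjusted p = 0.722). Foxo3 and Foxo4 had log2 fold changes of 0.11 (SE 0.16, edgeR adjusted p = 0.938) and -0.05 (SE 0.06, edgeR adjusted p = 0.923), and Foxo6 was under the filter. Klf15 correlated with Foxo1 at r = 0.87 (rho = 0.82) within groups, Pik3ip1 at 0.64 and Txnip at 0.15, and once the 2 libraries with the most extreme Foxo1 were left out the values were 0.77, 0.63 and 0.29. Over 13 libraries, the r of the other members with Foxo1 ran from -0.27 for Bcl6 to 0.57 for Ccng2 and Fbxo32. Of 17 genes of insulin and AKT signalling 17 were tested, 0 were called and 0 had an unadjusted edgeR p under 0.05, with a median log2 fold change of 0.04. The largest values there were 0.51 (SE 0.25) for Pik3r1, a regulatory subunit of PI3K, and 0.47 (SE 0.28) for the kinase Sgk1.

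Of 28 other FOXO targets 27 were tested, G6pc being under the filter, 0 were called, and their median log2 fold change was -0.07 (edgeR). At an unadjusted edgeR p under 0.05 there were 2, beside 7.38% of all genes. They were Cat, catalase, with a log2 fold change of -0.23 (SE 0.10, edgeR adjusted p = 0.614), and Ulk1, a kinase that starts autophagy, with -0.22 (SE 0.10, edgeR adjusted p = 0.628). Ddit4, an inhibitor of mTORC1, had the largest fold change, 1.00 (SE 0.49, edgeR adjusted p = 0.698), at 30.7 ± 19.4 CPM against 15.3 ± 6.64 CPM in WT. Mxi1, a MYC antagonist, had a log2 fold change of -0.26 (SE 0.14).

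Close relatives of the members gave 1 of 12 tested genes at an unadjusted edgeR p under 0.05, beside 7.38% of all genes. It was Pdk2, with a log2 fold change of -0.15 (SE 0.07, edgeR adjusted p = 0.664). The values of Pdk4 and Pdk2 were both negative, and neither passed the adjusted limit. The cyclin Ccng1 had -0.18 (SE 0.10) beside the -0.30 of Ccng2, and the arrestin Arrdc3 0.28 (SE 0.17) beside the -0.07 of Txnip. Of the glucose-sensing genes 6 of 7 were tested, with 0 called and 0 at an unadjusted edgeR p under 0.05. The factors Mlx and Mlxip had -0.17 (SE 0.09) and 0.17 (SE 0.10), and Arrdc4, which is induced by glucose with Txnip, had -0.14 (SE 0.16).

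Several members are also induced by glucocorticoids or fatty acids, and these responses were read beside them. Of 9 glucocorticoid response genes 0 were called, with a median log2 fold change of 0.29. Per1, a clock gene, was the 1 of them at an unadjusted edgeR p under 0.05, beside 7.38% of all genes, with 0.83 (SE 0.31, edgeR adjusted p = 0.554). Their score, the mean log2 CPM of the 9 genes, ran from 4.00 to 5.92 in iFAXLKO and from 4.50 to 5.05 in WT. With group means removed, it correlated over 13 libraries with Pik3ip1 at r = 0.87 (rho = 0.87), with Fbxo32 at r = 0.77 (rho = 0.86), with Klf15 at r = 0.75 (rho = 0.85) and with Trim63 at r = 0.69 (rho = 0.57), and with Sesn3 and Bcl6 at r = -0.20 and r = -0.28. Without iFAXLKO replicates 7 and 1, the libraries farthest from its median, r was 0.85 for Pik3ip1, 0.83 for Fbxo32, 0.57 for Klf15 and 0.72 for Trim63, and that of Pdk4 went from 0.39 to 0.78. Ddit4 and Sgk1 of this list also belong to the lists of FOXO targets and AKT signalling.

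**Figure D5:**
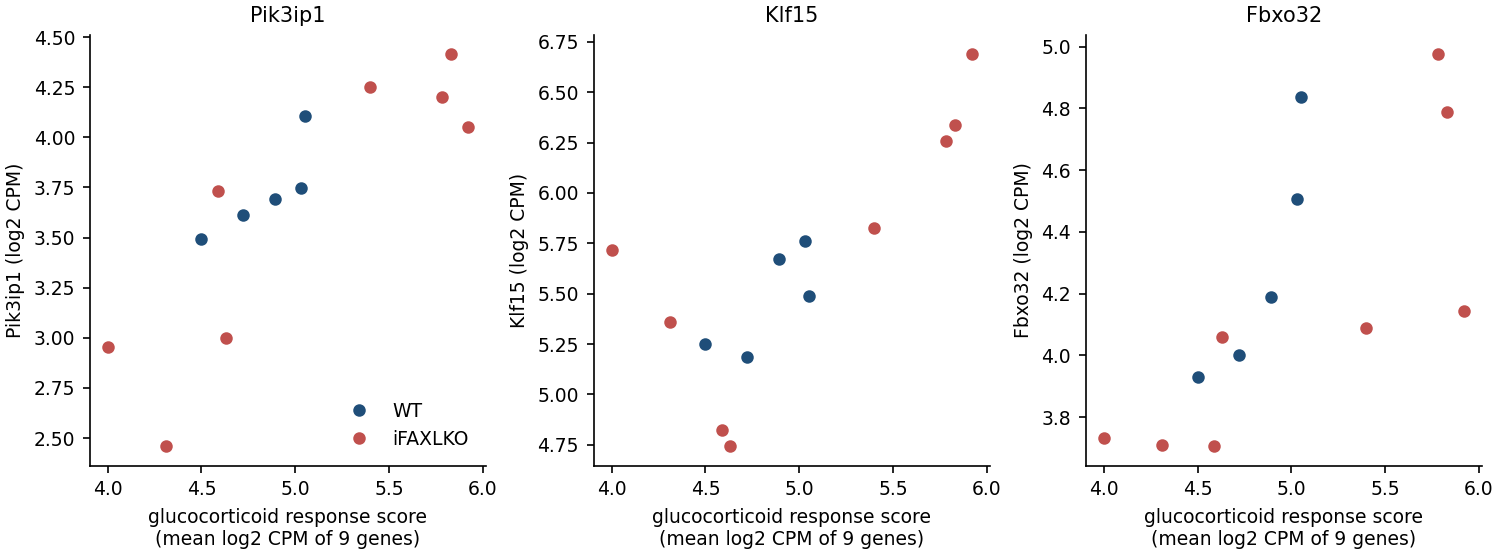
Log2 CPM of Pik3ip1, Klf15 and Fbxo32 against the glucocorticoid response score (mean log2 CPM of 9 genes), 1 point per library (WT blue, iFAXLKO red). The iFAXLKO libraries spread from 4.00 to 5.92 along the score and the WT libraries from 4.50 to 5.05, and r within groups is 0.87, 0.75 and 0.77.

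Of 10 PPAR response genes 0 were called, with a median log2 fold change of -0.11. At an unadjusted edgeR p under 0.05, beside 7.38% of all genes, were Acot2, an acyl-CoA thioesterase, with -0.48 (SE 0.13, edgeR adjusted p = 0.340), the lipid droplet coat gene Plin2 with -0.33 (SE 0.12, edgeR adjusted p = 0.535) and Cpt1a, which carries fatty acids into mitochondria, with 0.18 (SE 0.08, edgeR adjusted p = 0.641). Pdk4, which PPAR factors also induce, correlated with Ppara at r = 0.22 within groups, while Sesn3 did so at r = 0.89 (rho = 0.91). Of 9 clock genes 0 were called and 0 had an unadjusted edgeR p under 0.05, with a median of -0.06.

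The labels number the libraries, and these numbers fall into a lower range with 4 iFAXLKO and 2 WT libraries and an upper range with 4 and 3, which are not said to be batches. The sign of the difference in mean log2 CPM was the same in both ranges for 6 of 10 members. It was -0.30 and -0.28 for Ccng2, 0.36 and 0.33 for Bcl6, 0.09 and 0.38 for Sesn1 and 0.06 and 0.46 for Klf15 in the lower and upper range. Trim63 turned from -1.38 to 0.18, Txnip from 0.09 to -0.29, Sesn3 from -0.28 to 0.16 and Pik3ip1 from 0.05 to -0.27.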

How the data were processed

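Gene counts were deposited per library as whole numbers, 1 per Ensembl identifier. The sources differ on how the authors made these counts. The methods of the study name depletion of ribosomal RNA, Trim Galore and hisat2, whereas the submitters' processing notes name bcl2fastq 2.20, fastp 0.20.0, STAR 2.7.4a, DESeq2 and GRCm38.p6, and the labels polyadenylated RNA. Which tool counted the reads, and with which strand setting, is not given in the sources used here, so reads of overlapping genes on opposite strands may not be told apart.

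Of 42416 identifiers, 42347 matched a GENCODE M21 model (GRCm38). The filter kept genes above 1 CPM in 5 libraries or more. TMM factors scaled the counts, and groups were compared with the quasi-likelihood F test of edgeR 4.0.16 (R 4.3.3), with robust dispersions and without covariates, 2-sided, and p-values were adjusted over all 13360 genes by the Benjamini-Hochberg method. Intervals are 95% intervals. Log2 CPM used a prior count of 2. The code was tested on simulated data. Within groups, the lowest chi-square statistic between libraries was 16.6 per degree of freedom, so each library was 1 replicate, and p-values measure the spread between these libraries.

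The 10 genes and all lists were chosen with earlier results of these data known. Named are all 10, Axl, Acta1, the FOXO factors, genes of the pathway lists past the limit or otherwise up to 4 with the smallest p, and the most similar gene per member. Alternatives were DESeq2 1.42.0, limma-voom (3.58.1) with quality weights, upper quartile or RLE factors, CPM with no factors, totals without muscle and mitochondrial genes, other filters, protein-coding genes alone, a replicate block, a muscle score or the library number as a covariate, and leaving out libraries. Chosen after seeing the data were a fibroblast score as covariate and leaving out the 2 libraries with the highest lymphocyte score.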

Additional observations from a re-analysis of the deposited data

Results flagged for a closer look

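Within the groups, the CPM of each FOXO target gene were searched for a library whose gap to its nearest neighbour, as a share of the range of the group, exceeded the 95% critical value of Dixon's test. Of 20 groups, 1 held such a library, and at this critical value chance gives about 1 in 20. Ccng2 stood at 144 CPM in iFAXLKO replicate 5, while the other iFAXLKO libraries ran from 68.5 to 101 CPM. The same library held the highest Pdk4, Fbxo32, Trim63 and Acta1, at 4004, 31.4, 16.8 and 1280 CPM, and whether these go together was not tested.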

How the results depend on the processing

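None of the 10 FOXO target genes was called in any of 14 other fits or in any of 13 fits that left out 1 library, and the lowest adjusted p of a member was 0.255, for Ccng2 without iFAXLKO replicate 5. At an unadjusted p under 0.05 the members were 1 in the edgeR fit reported, 2 with DESeq2 (Sesn1 and Bcl6), 2 with limma-voom (Sesn1 and Ccng2), 2 without the 2 libraries with the highest skeletal muscle score, 2 without those with the highest lymphocyte score, 0 with the fibroblast score and 1 to 2 when 1 library was left out. Beside the 1 member of the edgeR fit reported stood 7.38% of all genes. For the other fits that share was not worked out, so their counts of members cannot be read against it. Over all genes, 17 were called, 67 with DESeq2, 7 among protein-coding genes alone, 8 with the fibroblast score and 14 to 19 when 1 library was left out. The cause was not tested.

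With the replicate number as a block, 3 members had an unadjusted p under 0.05 (Sesn1, Ccng2 and Bcl6), 0 were called, and 7 genes were called. The share of all genes at that unadjusted limit was not worked out for this fit either. Same-numbered libraries correlated in their deviations at r = 0.39, 0.42, 0.19, 0.18 and -0.61, and 2 of 5 libraries correlated best with their own number, so the numbers were not taken to pair the mice.

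Of 140 member values in the other fits 10 turned sign, and of 130 with 1 library left out 10 did. With the block, the log2 fold change was 0.135 for Txnip and 0.028 for Fbxo32. With limma-voom it was -0.11 for Pik3ip1, -0.39 for Trim63 and -0.021 for Foxo3. With library number as a covariate it was -0.018 for Pik3ip1 and 0.065 for Acta1. Without the 2 libraries with the highest muscle score it was 0.099 for Sesn3, and without those with the highest lymphocyte score it was 0.117 for Sesn3, 0.071 for Fbxo32 and 0.36 for Acta1. With the fibroblast score it was 0.027 for Txnip, 0.003 for Sesn3, -0.24 for Axl (unadjusted edgeR p of 0.0385 and an adjusted p of 1.000), -0.084 for Foxo3, 0.020 for Foxo4, -0.036 for Arrdc3 and 0.039 for Mlx. With 1 library left out, it ranged from -0.137 to 0.016 for Txnip, -0.182 to 0.080 for Sesn3, -0.086 to 0.152 for Pik3ip1, -0.255 to 0.053 for Fbxo32, -0.34 to 1.02 for Trim63 and -0.94 to 0.19 for Acta1. The direction of Pdk4, Klf15, Sesn1, Ccng2 and Bcl6 was kept in all of these fits, but not the size. Over the other fits and those with 1 library left out, Pdk4 lay between -0.313 (without iFAXLKO replicate 5) and -0.043 (block), and it was -0.112 without WT replicate 1. Klf15 lay between 0.096 (limma-voom) and 0.485 (without iFAXLKO replicate 4), and it was 0.13 with the block and 0.205 without iFAXLKO replicate 7. Ccng2 lay between -0.425 (without iFAXLKO replicate 5) and -0.103 (fibroblast score), Bcl6 between 0.276 (without iFAXLKO replicate 4) and 0.546 (without the libraries with the highest lymphocyte score), and Sesn1 between 0.188 (fibroblast score) and 0.349 (without the libraries with the highest lymphocyte score).

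With 8 and 5 libraries, the intervals of Klf15, Bcl6, Pik3ip1 and Trim63 include changes of up to 2.05-fold, 1.82-fold, 1.59-fold and 7.08-fold upward. Downward, the intervals of Trim63, Ccng2, Fbxo32 and Pik3ip1 reach 0.26, 0.64, 0.65 and 0.66 of the WT level.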
